A study of Bos taurus with 12 samples.

Results

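The cytosolic ribosomal proteins are the structural proteins of the ribosome that works in the cytosol. They were chosen here by gene symbol: every probe set with a single symbol of the RPL or RPS series, or named RPLP0, RPLP1, RPLP2 or RPSA, with the RPS6K kinases left out. The rule found 94 probe sets of 67 genes, 42 of the large and 25 of the small subunit, among 9155 genes with a probe set. Of the 67 genes, 49 had 1 probe set and 18 had several, and the probe set with the highest mean over the 12 arrays stood for its gene. A RefSeq gene table of cattle holds 84 symbols that follow the rule. Of these, 17 have no probe set named for them here, among them RPL6, RPL15, RPLP1, RPS4X and RPS27A.

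RNA was measured on Affymetrix bovine arrays in 4 groups of 3 arrays. The AI conceptuses came from artificial insemination, the IVP conceptuses from fertilization and culture in vitro, and the SCNT conceptuses from somatic cell nuclear transfer, which makes cloned embryos. In these 3 groups blastocysts were transferred to synchronized cows on day 7, conceptuses of similar length were recovered on day 16, and RNA was taken from 10 mg of tissue. The FB group holds the cultured fibroblasts that served as nuclear donors, although the labels also give them the tissue type of the conceptuses. Breed, age and sex are not given in the labels, and they do not state how many conceptuses or cultures stand behind each array. The p-values therefore reflect only how far these arrays scatter, which may be technical.

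A ribosome is built from 1 copy of nearly every one of these proteins, joined to the ribosomal RNAs. The large subunit makes the peptide bond, the small subunit reads the messenger RNA, and the stalk proteins of the large subunit recruit the elongation factors. The messages of these proteins are abundant in growing cells and begin with a TOP motif, a run of pyrimidines at the 5′ end. Through this motif mTOR and LARP1 set the translation of these messages. Ribosome assembly needs a second set of proteins in the nucleolus, which process the ribosomal RNA and leave before the ribosome works. The bovine conceptus elongates rapidly in the days around these samples.

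The labelled cell types were checked against their markers. Of 13 trophoblast markers with a probe set, 10 or 11 were above log2 4 on every conceptus array and 0 on the fibroblast arrays, while KRT8 and ELF5 were at or below 2.94 in the mean of every group. Of 9 fibroblast markers, 7 were above log2 4 on each fibroblast array and 1, THY1, on each conceptus array; PDGFRB was at 2.58 in the fibroblast mean. The epiblast markers POU5F1 and SOX2 were near the lowest value of the table everywhere. Of 8 leukocyte and blood markers, 4 were above log2 4 on every AI array, 1 or 2 on IVP arrays and 0 to 2 on SCNT arrays. The mean of that list was 4.69 to 5.11 on AI, 2.77 to 3.30 on IVP and 2.76 to 3.22 on SCNT arrays, with PTPRC, CD68, HBA and HBB near the lowest value in every group. Of 8 hypoblast markers, 4 or 5 were above log2 4 on AI and IVP arrays, 4 on SCNT and 2 on fibroblast arrays, while AFP and GATA4 were below log2 4 on every array. TTR went the other way, with means of 2.43 in AI, IVP and SCNT and 6.75 in fibroblasts. FN1 had means of 10.82 to 11.33 in all groups. The mean of that list was 6.07 to 6.53 on AI, 6.20 to 6.36 on IVP, 5.79 to 5.98 on SCNT and 4.31 to 4.36 on fibroblast arrays, with SCNT below AI and IVP without overlap. Its member RBP4, a retinol carrier, had group means of 7.16 in AI, 6.34 in IVP and 5.67 in SCNT. The part of leukocyte, blood and hypoblast cells in the differences from AI given here was not tested. Arrays of a group correlated at r = 0.978 or more. The signal of the GAPDH control probes at the 3′ end exceeded that at the 5′ end by 0.21 to 0.38 log2 units on AI, 0.28 to 0.45 on SCNT, 0.35 to 0.89 on IVP and 0.01 to 0.06 on fibroblast arrays. The added control transcripts were brighter on AI 2, IVP 2 and IVP 3 than on the other 9 arrays.

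The genes were bright on every array. All values are log2 signals, where 1 unit is a doubling, and the table ran from 2.42 to 13.66. Of the 67 genes, 60 had a mean above log2 10, between 10.73 and 12.58. Their brightest probe sets lay between ranks 5 and 139 among 24016 probe sets, and 55 of these were among the brightest 100. Further probe sets of the same genes are not counted in the 55. The brightness of a probe set also depends on its probes, so these ranks do not order the messages by abundance. The 99.5th percentile of all probe sets was 11.26 to 11.34 on each array, so most of these genes lay in the top of a distribution that was nearly the same on every array.

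The 3 brightest were RPL13A, RPS20 and RPS2. RPL13A, a large subunit protein known in human myeloid cells for leaving the ribosome and silencing inflammatory messages, read 12.44, 12.46 and 12.65 in AI, 12.57, 12.62 and 12.50 in IVP, 12.65, 12.68 and 12.56 in SCNT and 12.62, 12.65 and 12.60 in fibroblasts. Its 4 groups overlapped. RPS20, of the head of the small subunit, read 12.36, 12.64 and 12.47 in AI, 12.65, 12.60 and 12.75 in IVP, 12.77, 12.54 and 12.43 in SCNT and 12.57, 12.64 and 12.55 in fibroblasts, and its groups overlapped too. Over the 60 bright genes, the distance between the highest and the lowest of the 12 arrays had a median of 0.44 log2 units. It was smallest for RPL35A, at 0.16, and largest for RPL36A, at 1.37, and RPLP0, at 1.31.

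The 3 dimmest were RPL37, RPL3L and RPS19, whose probe sets stayed below log2 4 on every array. RPL37 read 2.44 or 2.45 and RPL3L, the form of RPL3 made in heart and skeletal muscle, read 2.42 on all 12 arrays. RPS19, known for its mutations in Diamond-Blackfan anaemia in humans, read 2.46, 2.47 and 2.47 in AI, 2.70, 2.68 and 2.80 in IVP, 2.50, 2.70 and 2.49 in SCNT and 2.42 or 2.43 in fibroblasts. These signals are near the lowest of the table, where values have little meaning, and say nothing certain of the messages. The other 64 genes, 40 large and 24 small, were above log2 4 on every array, the lowest value being 5.84, and all 64 were tested.

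Cloned and in vitro produced conceptuses were compared with inseminated ones to ask what the way of making the embryo changes. Of the 64 tested genes, 2 were higher in SCNT than in AI and none was lower, by limma with an adjusted p under 0.05. The same test called 27.6% of 6892 probe sets, 16.2% higher and 11.4% lower. The median difference of the 64 genes was 0.09 log2 units, beside 0.08 over all probe sets tested and 0.10 over the brightest probe set of each gene. In IVP against AI 2 were higher and none was lower, beside 17.9% of all probe sets, 8.42% higher and 9.49% lower. The median was 0.12, beside 0.02 over all probe sets tested and 0.06 over the brightest probe set of each gene. The genes called were RPL22 and RPS27L in both comparisons, which share the AI arrays.

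RPL22 is a protein on the surface of the large subunit that mice can live without, known for its role in T cell development. It read 11.25, 11.17 and 11.33 in AI, 11.64, 11.72 and 11.61 in SCNT, 11.72, 11.56 and 11.74 in IVP and 11.20, 10.95 and 11.14 in fibroblasts. All 6 SCNT and IVP arrays lay above the 3 AI arrays. The difference was 0.41 ± 0.12 (SE, n = 3 arrays a group; adjusted p = 0.0264 by limma), or 1.33-fold, for SCNT and 0.42 ± 0.12, or 1.34-fold, for IVP (adjusted p = 0.0313). The SCNT call ended without AI 1, AI 2 or any single SCNT array and the IVP call without any single AI array, IVP 1 or IVP 3, with adjusted p of 0.051 to 0.097, while the difference stayed between 0.37 and 0.46. Both calls also ended without AI 2, IVP 2 and IVP 3 together (adjusted p = 0.071 for SCNT and 0.178 for IVP by limma).

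RPS27L is a close relative of RPS27 whose gene is a target of p53 in human cells. It read 6.28, 7.09 and 5.84 in AI, 7.59, 7.59 and 6.86 in SCNT and 7.35, 7.39 and 7.63 in IVP. SCNT 3 lay below AI 2, so those groups overlapped, while all 3 IVP arrays lay above the AI arrays. The difference was 0.95 ± 0.30 (SE, n = 3; adjusted p = 0.0363 by limma), or 1.93-fold, for SCNT and 1.06 ± 0.30, or 2.08-fold, for IVP (adjusted p = 0.0320). Without AI 3, the lowest array, the differences were 0.67 and 0.78 with adjusted p of 0.115 and 0.107, and the calls also ended without AI 1. The SCNT call ended without SCNT 1 or SCNT 2 as well, and the IVP call without any single IVP array or without AI 2, IVP 2 and IVP 3. Both also ended with no filter on low signal (adjusted p = 0.248 and 0.239) and with the mean of its probe sets, at 0.48 and 0.54. RPS27, its common counterpart, read 11.75, 11.84 and 11.93 in AI, 11.98, 11.90 and 11.67 in SCNT, 11.88, 11.93 and 12.09 in IVP and 11.86, 11.84 and 11.78 in fibroblasts. The groups of RPS27 overlapped except that IVP lay above fibroblasts, and the 95% interval of SCNT minus AI was −0.28 to 0.30.

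**Figure D1:**
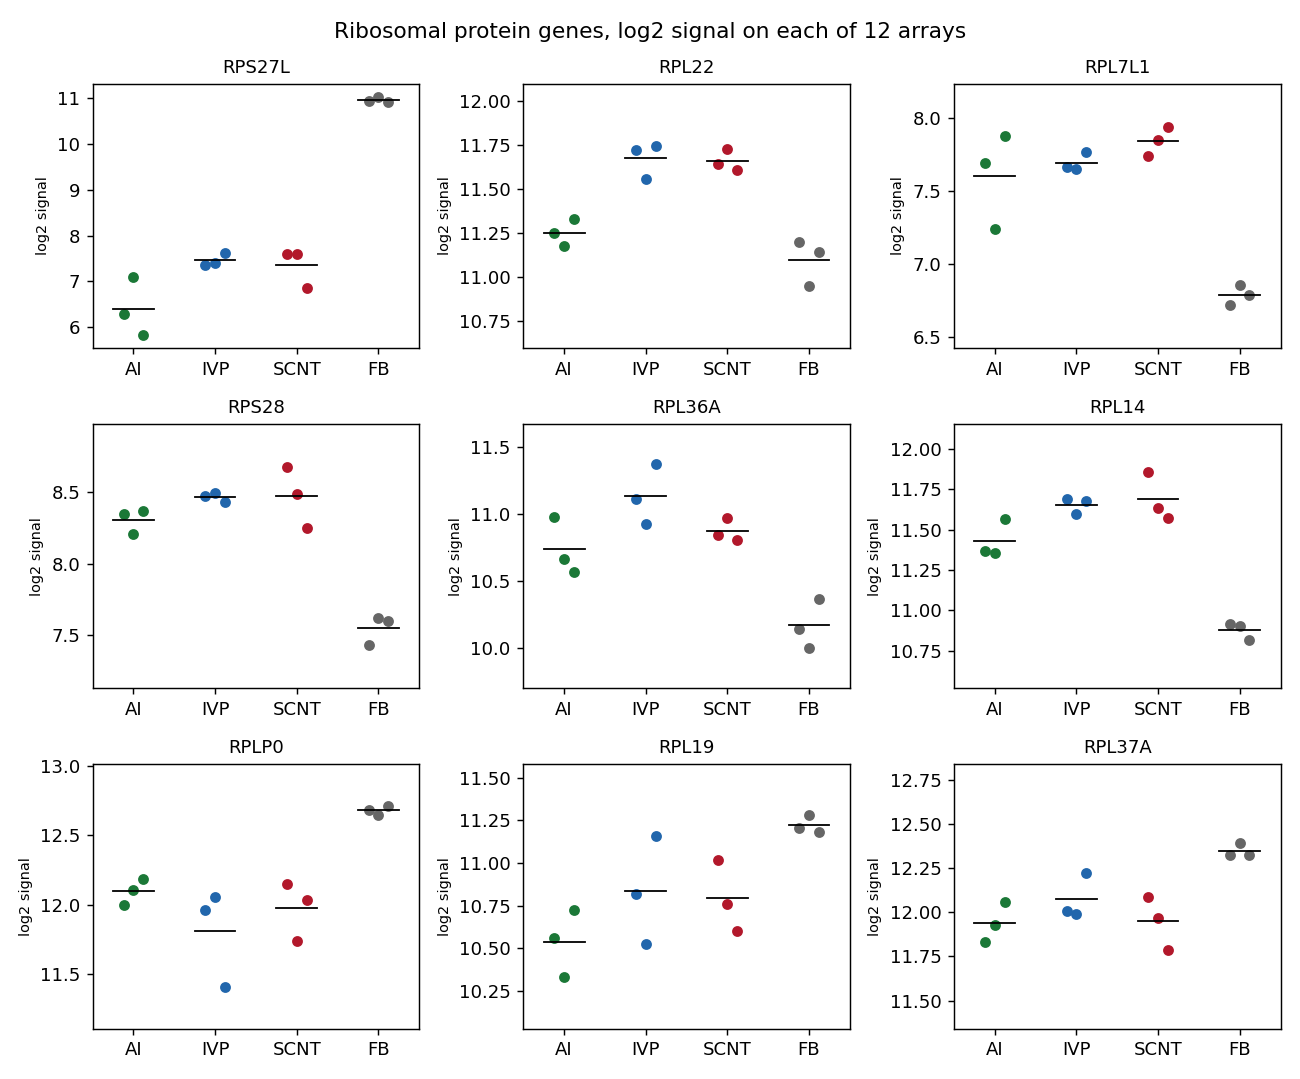
Log2 signal of 9 ribosomal protein genes on each of the 12 arrays (vertical axes, each with its own range that does not start at 0) in the AI, IVP, SCNT and FB groups; points are arrays and bars are group means. RPS27L and RPL22 are lowest among conceptuses in AI, and RPS27L reaches 10.93 to 11.02 in fibroblasts.

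The remaining 62 tested genes passed the test in neither comparison. Their differences lay between −0.25, for RPL10, and 0.31, for RPS9, in SCNT against AI, and between −0.29, for RPLP0, and 0.40, for RPL36A, in IVP against AI. The half-width of the 95% interval had a median of 0.28 log2 units, and the interval lay within 1 log2 unit of 0 for 63 of the 64 genes in each of these comparisons, RPS27L being the exception. It lay within 0.5 of 0 for 50 genes in SCNT and 49 in IVP against AI. In 13 genes the SCNT and AI arrays did not overlap, 11 higher and 2 lower in SCNT, beside 44.3% of all probe sets (1874 higher and 1180 lower of 6892). In 26 genes the IVP and AI arrays did not overlap, 23 higher and 3 lower in IVP, beside 37.4% of all probe sets (1383 higher and 1198 lower of 6892).

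The arrays of a group lay close together for these genes: the residual standard deviation had a median of 0.115 log2 units over the 64 genes, beside 0.203 over all probe sets tested. Among the 52 other probe sets with a mean above log2 11 it was 0.098. Of these 52, 8 were called in SCNT against AI, 4 higher and 4 lower, and 5 in IVP against AI, 2 higher and 3 lower. Their median differences were 0.00 and 0.08.

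Between SCNT and IVP, which differ in how the embryo was made in vitro, no ribosomal protein gene was called by limma and none reached an unadjusted p under 0.05. Over all probe sets 0.58% were called, 0.232% higher and 0.348% lower, and 876 of 6892 had an unadjusted p under 0.05. The differences of the 64 genes had a median of −0.02 and ran from −0.35 for RPL39 to 0.19 for RPL8. The median was 0.06 over all probe sets tested and 0.05 over the brightest probe set of each gene. Every 95% interval lay within 1 log2 unit of 0, and 56 of 64 within 0.5. In 7 genes all SCNT arrays lay on the same side of all IVP arrays, 1 higher and 6 lower in SCNT, beside 19.7% of all probe sets (889 higher and 471 lower of 6892).

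RPL39, a very short protein that lines the exit tunnel, was the gene with the lowest of those differences. It read 11.94, 11.73 and 11.76 in SCNT, 12.002, 11.97 and 12.49 in IVP, 12.17, 12.01 and 11.56 in AI and 11.84, 11.65 and 11.84 in fibroblasts. The 3 SCNT arrays lay below the 3 IVP arrays, and AI, at 11.56 to 12.17, overlapped both (adjusted p = 0.485 by limma for SCNT against IVP).

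**Figure D2:**
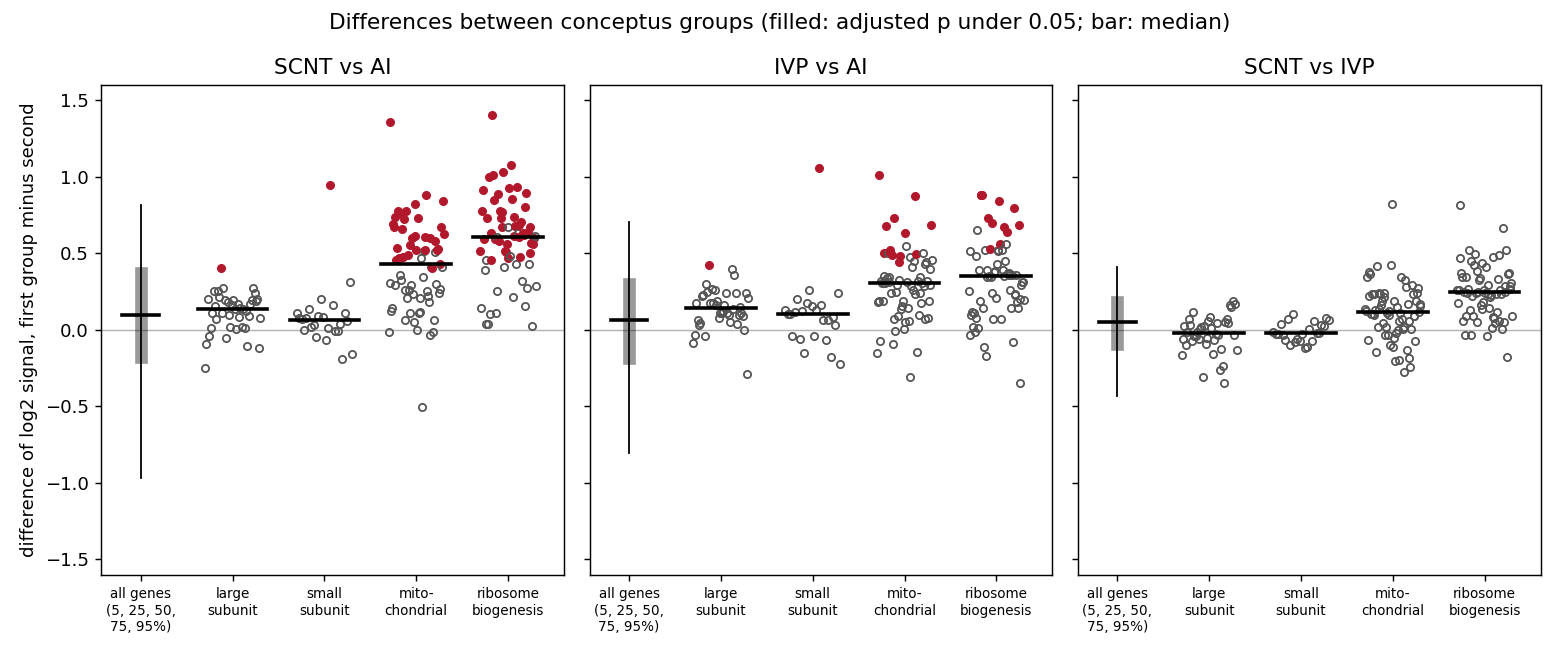
Difference of log2 signal, first group minus second (vertical axis), for each tested gene of the large and small subunit, the mitochondrial ribosomal proteins and the ribosome biogenesis list, beside the 5th, 25th, 50th, 75th and 95th percentiles of all genes; filled points have an adjusted p under 0.05 and bars are medians. RPS27L, at 0.95 and 1.06, and RPL22, at 0.41 and 0.42, are the 2 cytosolic ribosomal protein genes called against AI, while 44 of 66 biogenesis genes are called higher in SCNT than in AI.

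The stalk and the laminin receptor gene were described whether or not they changed. RPLP0, the base of the stalk that holds the P1 and P2 proteins, read 11.998, 12.10 and 12.19 in AI, 11.96, 12.05 and 11.40 in IVP, 12.15, 11.73 and 12.04 in SCNT and 12.69, 12.65 and 12.72 in fibroblasts. IVP 3 was the lowest array, the conceptus groups overlapped, and every fibroblast array lay above every conceptus array. RPLP2 read 11.72, 11.88 and 11.95 in AI, 11.998, 11.996 and 12.18 in IVP, 12.03, 11.96 and 11.80 in SCNT and 11.79, 11.70 and 11.65 in fibroblasts. IVP lay above AI and above fibroblasts, with a difference from fibroblasts of 0.34 ± 0.10 (SE; adjusted p = 0.00844 by limma). That call ended without FB 3, without AI 2, IVP 2 and IVP 3, and with arrays centred on the brightest 10% of the other probe sets, where the sign turned (−0.013). RPSA, a small subunit protein also known as a laminin receptor precursor, read 11.83, 11.77 and 12.02 in AI, 11.68, 11.73 and 11.54 in IVP, 11.91, 11.56 and 11.68 in SCNT and 11.74, 11.74 and 11.62 in fibroblasts. It was called in none of the comparisons, and the interval of IVP minus AI was −0.53 to 0.08.

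Some genes have a variant that replaces or copies the common protein. RPL26L1, nearly identical to RPL26, read 7.41, 7.55 and 7.35 in AI, 7.55, 7.62 and 7.91 in IVP, 7.58, 7.37 and 7.20 in SCNT and 7.26, 7.15 and 7.28 in fibroblasts. Only IVP against fibroblasts passed the test, at 0.47 ± 0.12 (adjusted p = 0.00433 by limma), and that call ended without AI 2, IVP 2 and IVP 3 and, at 0.11, with the centring on the brightest 10%. RPL26, known for binding the message of p53, read 11.93, 11.86 and 12.04 in AI, 12.08, 12.05 and 12.23 in IVP, 12.18, 12.15 and 12.09 in SCNT and 12.06, 12.11 and 12.06 in fibroblasts, and no comparison called it. RPL3, which lies near the peptidyl transferase centre, read 11.57, 11.38 and 11.57 in AI, 11.70, 11.59 and 11.56 in IVP, 11.70, 11.71 and 11.70 in SCNT and 11.60, 11.55 and 11.57 in fibroblasts. The SCNT arrays of RPL3 lay above those of AI by 0.19 ± 0.12 (adjusted p = 0.236 by limma).

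RPL10, which joins the large subunit late in its assembly, read 12.46, 12.17 and 12.13 in AI, 12.14, 11.89 and 12.47 in IVP, 12.05, 11.98 and 11.97 in SCNT and 12.23, 12.30 and 12.22 in fibroblasts. The SCNT arrays lay below AI and fibroblasts without passing the test, and its interval against AI was −0.61 to 0.11. RPL10L, RPL22L1 and RPL36AL have no probe set named for them here. The probe set named RPS4Y1 read 12.23, 12.12 and 12.08 in AI, 11.95, 11.92 and 12.03 in IVP, 11.99, 11.99 and 11.87 in SCNT and 11.95, 11.93 and 11.80 in fibroblasts. AI lay above the other groups, and against fibroblasts the difference of 0.25 ± 0.09 passed the test (adjusted p = 0.0211 by limma). That call ended without AI 1 or any single fibroblast array, and the sign turned with the centring on the brightest 10% (−0.11) and with the mean of all probe sets of that name (−0.62). RPS4X encodes nearly the same protein in humans, so the name of that probe set is uncertain.

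The conceptus groups were next set against the fibroblasts, the cells whose nuclei went into the SCNT embryos. These comparisons share the 3 fibroblast arrays, and a lower share of a cell type and less RNA per cell cannot be told apart in such bulk samples. Of the 64 genes, 8 were higher and 6 lower in AI than in fibroblasts, beside 77.2% of 8164 probe sets called, 41.6% higher and 35.6% lower. In IVP 20 were higher and 6 lower, beside 78.7%, 43% higher and 35.7% lower. In SCNT 17 were higher and 6 lower, beside 79.9%, 45% higher and 34.8% lower. The share of ribosomal protein genes called was thus 21.9%, 40.6% and 35.9%.

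The median differences of the 64 genes from fibroblasts were 0.05 for AI, 0.13 for IVP and 0.13 for SCNT, beside 0.11, 0.14 and 0.20 over all probe sets tested. Over the brightest probe set of each gene the medians were 0.11, 0.19 and 0.23. Arrays of the groups did not overlap in 31 genes for AI, 42 for IVP and 33 for SCNT, beside 81.3%, 83.4% and 84.7% of all probe sets. Of the 52 other probe sets with a mean above log2 11, 30, 33 and 30 were called. The split depends on the scaling. With each array centred on the brightest 10% of the other probe sets, 2 ribosomal protein genes were higher and 42 lower in AI, 4 and 32 in IVP and 3 and 37 in SCNT. Of all 8164 probe sets, 2462 were then higher and 3798 lower in AI, 2541 and 3746 in IVP and 2633 and 3738 in SCNT. That centring moved the median of all probe sets tested from 0.11 to −0.25 in AI, from 0.14 to −0.22 in IVP and from 0.20 to −0.20 in SCNT, and the medians of the ribosomal protein genes to −0.31, −0.23 and −0.28.

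**Figure D3:**
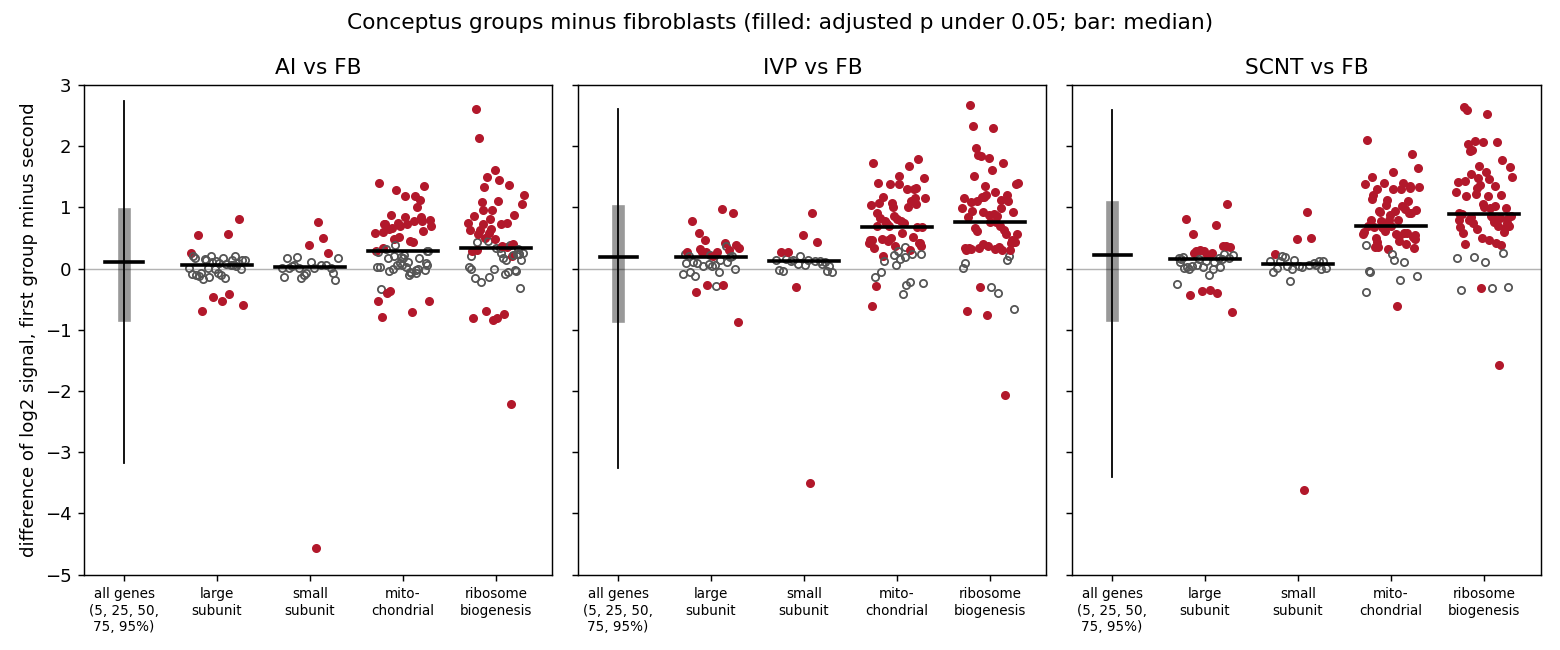
Difference of log2 signal, conceptus group minus fibroblasts (vertical axis), for the same gene groups and percentiles; filled points have an adjusted p under 0.05 and bars are medians. All but a few ribosomal protein genes lie within 1 log2 unit of 0, with RPS27L alone at −4.56, −3.50 and −3.61, against a 5th to 95th percentile of −3.17 to 2.74 over all genes in AI.

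RPS27L had the largest difference among the ribosomal proteins. Its fibroblast arrays read 10.93, 11.02 and 10.93, and no conceptus array was above 7.63. Fibroblasts were 23.6-fold higher than AI (log2 difference −4.56 ± 0.27, SE; adjusted p = 1.44e-08 by limma), 11.3-fold higher than IVP and 12.2-fold higher than SCNT. A second probe set of RPS27L had a mean of 2.44 and was not tested. The difference kept its sign and its call under every alternative run.

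The other genes lower in conceptuses changed by less than 1 log2 unit. RPLP0 was lower than in fibroblasts in AI, IVP and SCNT, with log2 differences of −0.59, −0.88 and −0.71 (each ± 0.16, SE; adjusted p = 0.00551, 0.000328 and 0.00153 by limma). Another bright probe set of RPLP0, with a mean of 11.81, gave smaller differences of −0.30, −0.36 and −0.41 (adjusted p = 0.0253, 0.00936 and 0.00436 by limma). RPL19, which takes part in a bridge to the small subunit, read 10.56, 10.33 and 10.72 in AI, 10.82, 10.53 and 11.16 in IVP, 11.02, 10.76 and 10.60 in SCNT and 11.21, 11.28 and 11.18 in fibroblasts. All 9 conceptus arrays of RPL19 lay below the fibroblasts, with differences of −0.69, −0.39 and −0.43, and the IVP and SCNT calls ended without any single fibroblast array. They also ended without IVP 1 or IVP 2 and without SCNT 2 or SCNT 3, with no filter and with the mean of all probe sets of the gene.

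RPL27A read 11.77, 11.59 and 11.69 in AI, 11.88, 11.80 and 11.94 in IVP, 11.67, 11.82 and 11.86 in SCNT and 12.11, 11.99 and 12.35 in fibroblasts. Its differences were −0.46, −0.27 and −0.37, and the SCNT call ended without FB 3, the highest array. The IVP call ended without IVP 1, IVP 2, FB 1 or FB 3, without AI 2, IVP 2 and IVP 3, with arrays centred on their medians and with only the 6 arrays of both groups. RPL37A, a zinc-binding protein, read 11.83, 11.93 and 12.06 in AI, 12.01, 11.99 and 12.22 in IVP, 12.09, 11.97 and 11.79 in SCNT and 12.33, 12.39 and 12.32 in fibroblasts. The conceptus arrays of both genes all lay below the fibroblast arrays, and for RPL37A the differences were −0.41, −0.27 and −0.40. The IVP call of RPL37A ended without any single fibroblast array, IVP 1 or IVP 2.

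RPL32 read 11.10, 10.96 and 11.07 in AI, 11.29, 11.14 and 11.41 in IVP, 11.56, 11.07 and 11.003 in SCNT and 11.63, 11.53 and 11.52 in fibroblasts. SCNT 1 overlapped the fibroblasts, and the differences were −0.52 in AI (adjusted p = 0.0042 by limma), −0.28 in IVP (adjusted p = 0.0763) and −0.35 in SCNT (adjusted p = 0.0324). The SCNT call ended without SCNT 2, SCNT 3 or any single fibroblast array, with no filter and with only the 6 arrays of both groups, and the AI call ended with the mean of all probe sets (−0.16). RPS2, which lines the entry of the messenger RNA channel, read 12.59, 12.51 and 12.62 in AI, 12.46, 12.44 and 12.38 in IVP, 12.70, 12.44 and 12.44 in SCNT and 12.73, 12.75 and 12.69 in fibroblasts. Only IVP passed the test, at −0.30 ± 0.09 (adjusted p = 0.0109 by limma), and that call ended without FB 1 or FB 2 and without AI 2, IVP 2 and IVP 3.

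The genes higher in conceptuses than in fibroblasts began with RPL7L1, RPS28, RPL36A and RPL14. RPL7L1, a relative of RPL7 found in the nucleolus with large subunits under assembly, read 7.69, 7.23 and 7.87 in AI, 7.66, 7.65 and 7.76 in IVP, 7.74, 7.84 and 7.93 in SCNT and 6.72, 6.85 and 6.78 in fibroblasts. Every conceptus array lay above the fibroblasts, by 0.81 ± 0.14, 0.91 ± 0.14 and 1.05 ± 0.14 (SE; adjusted p = 0.000203, 8.23e-05 and 2.19e-05 by limma). Its 2 other probe sets had means of 3.02 and 2.91, and with the mean of all its probe sets the calls ended. RPL7 itself read 12.29, 12.08 and 12.11 in AI, 12.40, 12.26 and 12.26 in IVP, 12.16, 12.36 and 12.54 in SCNT and 12.13, 11.92 and 12.30 in fibroblasts, which overlapped all conceptus groups.

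RPS28, near the exit of the messenger RNA channel, read 8.34, 8.20 and 8.36 in AI, 8.47, 8.49 and 8.43 in IVP, 8.67, 8.49 and 8.25 in SCNT and 7.43, 7.62 and 7.60 in fibroblasts. No conceptus array overlapped the fibroblasts, and the differences were 0.75, 0.91 and 0.92, each ± 0.11 (SE; adjusted p = 6.08e-05, 1.13e-05 and 1.05e-05 by limma). RPL36A, which contacts the transfer RNA exit site, read 10.98, 10.66 and 10.57 in AI, 11.11, 10.92 and 11.37 in IVP, 10.84, 10.97 and 10.81 in SCNT and 10.14, 10.00 and 10.36 in fibroblasts. The differences were 0.57, 0.97 and 0.70, each ± 0.15. RPL14 read 11.37, 11.36 and 11.57 in AI, 11.69, 11.60 and 11.68 in IVP, 11.86, 11.63 and 11.58 in SCNT and 10.92, 10.91 and 10.82 in fibroblasts, with differences of 0.55, 0.78 and 0.81, each ± 0.10.

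RPS3, a protein of the messenger RNA entry channel, read 12.03, 12.03 and 12.25 in AI, 12.04, 12.01 and 12.06 in IVP, 12.18, 12.09 and 12.01 in SCNT and 11.61, 11.66 and 11.53 in fibroblasts. The conceptus arrays all lay above, by 0.50, 0.44 and 0.49, each ± 0.09. Its 2 dimmer probe sets, with means of 7.74 and 6.07, were higher in conceptuses as well, by 0.93 to 1.28 (all called by limma). RPL22 was higher than in fibroblasts by 0.58 in IVP (adjusted p = 0.000163 by limma) and 0.56 in SCNT (adjusted p = 0.000196), and by 0.15 in AI (adjusted p = 0.167), whose arrays overlapped the fibroblasts. Centring on the brightest 10% of the other probe sets ended all 3 RPS3 calls, the AI calls of RPL14 and RPL36A, the SCNT call of RPL36A and both RPL22 calls.

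For 5 genes the probe sets of 1 gene went different ways, with at least 1 of them called. The bright probe set of RPL24, the gene mutated in the Belly spot and tail mouse, read 11.55, 11.58 and 11.72 in AI, 11.92, 11.74 and 12.01 in IVP, 11.99, 11.84 and 11.85 in SCNT and 11.61, 11.63 and 11.59 in fibroblasts. Its dim probe set read 3.51, 3.96 and 3.56 in AI, 5.31, 4.07 and 3.76 in IVP, 5.31, 5.10 and 5.25 in SCNT and 6.14, 6.21 and 6.10 in fibroblasts. The dim one was lower than in fibroblasts in every conceptus group, with log2 differences of −2.47, −1.77 and −0.93, and higher in SCNT than in AI by 1.54 (adjusted p = 0.00629 by limma), while the bright one was higher than in fibroblasts in IVP and SCNT by 0.28. Both calls of the bright one ended without any single fibroblast array and with the centring on the brightest 10%, the IVP call also without IVP 1 or IVP 3, and the SCNT call without SCNT 1. The sign turned with that centring (−0.079 in IVP and −0.12 in SCNT) and with the mean of both probe sets (−0.74 and −0.32).

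RPS12 showed the opposite arrangement. Its bright probe set read 12.32, 12.17 and 12.38 in AI, 12.41, 12.33 and 12.43 in IVP, 12.38, 12.39 and 12.33 in SCNT and 12.39, 12.43 and 12.45 in fibroblasts, with no call. A dim one read 6.50, 5.76 and 5.88 in AI, 5.74, 5.40 and 4.52 in IVP, 4.44, 4.51 and 4.86 in SCNT and 3.24, 3.38 and 3.14 in fibroblasts. It was lower in SCNT than in AI (log2 difference −1.44, adjusted p = 0.0057 by limma) and higher than in fibroblasts in all conceptus groups, by 2.80, 1.97 and 1.35. Another dim probe set of RPS12, with a mean of 4.13, differed by only −0.06 in SCNT against AI, without a call. Against fibroblasts it was called higher in AI and IVP, by 0.57 and 0.69, and not in SCNT, at 0.51 (adjusted p = 0.0578 by limma). RPL21 had a dim probe set that was higher than in fibroblasts by 1.28, 1.01 and 0.996, at 4.66 to 5.13 on conceptus and 3.66 to 3.79 on fibroblast arrays, beside a bright one at 11.75 to 12.22 without a call. RPS4Y1 had one at 2.66 to 3.73 on conceptus and 4.47 to 5.02 on fibroblast arrays. RPL9 had a bright probe set higher than in fibroblasts by 0.38 in IVP and 0.35 in SCNT, and a dim one at 4.48 to 5.001 without a call. Both calls of the bright RPL9 probe set ended with the centring on the brightest 10%, where the SCNT difference was −0.058. Which transcripts the dim probes bind was not tested.

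The subunits were compared by the mean log2 signal of the 40 large minus that of the 24 small subunit genes on each array. Its size depends on the probes, so only its change between arrays is of use. It was −0.14 to −0.23 on AI, −0.12 to −0.16 on IVP, −0.10 to −0.17 on SCNT and −0.27 to −0.33 on fibroblast arrays. The conceptus groups overlapped, and the fibroblasts lay below them. Without the variant members it was −0.15 to −0.20 on AI, −0.10 to −0.14 on IVP, −0.10 to −0.14 on SCNT and −0.07 to −0.12 on fibroblast arrays, so that the difference of each conceptus group from fibroblasts turned from 0.12, 0.16 and 0.15 to −0.091, −0.022 and −0.036 for AI, IVP and SCNT. With the variants left out, the 3 AI arrays lay below all IVP and SCNT arrays. RPS27L is the variant with the largest difference and belongs to the small subunit.

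By the median over genes, the large subunit differed from AI by 0.14 in SCNT and 0.14 in IVP, and the small subunit by 0.06 and 0.10. Against fibroblasts, the medians were 0.06 for large and 0.03 for small subunit genes in AI, 0.20 and 0.12 in IVP and 0.16 and 0.08 in SCNT. Of the 40 large subunit genes, 9, 19 and 18 were called against fibroblasts in AI, IVP and SCNT, and of the 24 small subunit genes 5, 7 and 5. The shares were 22.5%, 47.5% and 45% of the large and 20.8%, 29.2% and 20.8% of the small subunit genes. Over all probe sets they were 77.2%, 78.7% and 79.9%.

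**Figure D4:**
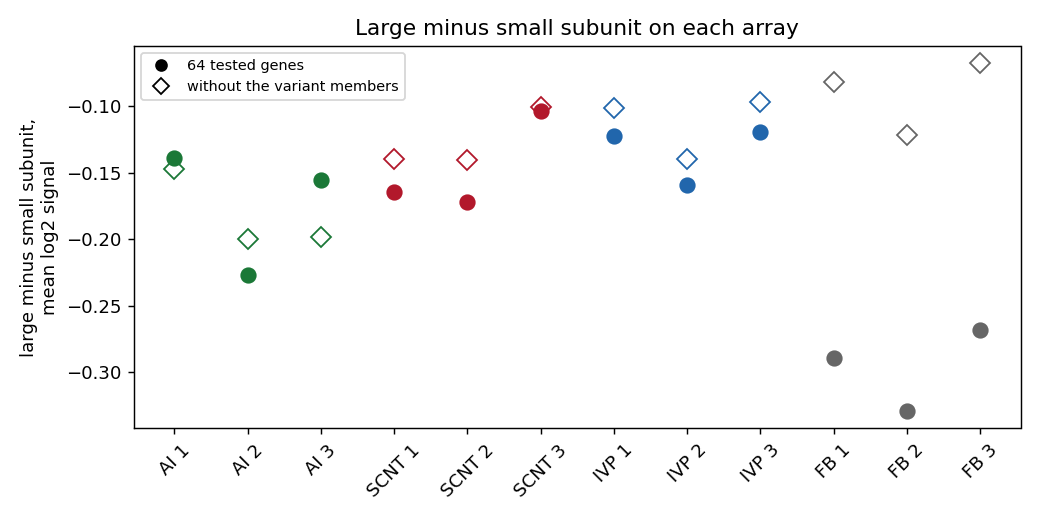
Mean log2 signal of the large subunit genes minus that of the small subunit genes (vertical axis) on each of the 12 arrays (horizontal axis); filled circles use the 64 tested genes and open diamonds leave out the variant members. The 3 fibroblast arrays are lowest with all 64 genes, at −0.27 to −0.33, and lie at −0.07 to −0.12 without the variants.

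Genes that serve ribosome assembly were counted beside the ribosomal proteins, and the difference between the lists was not tested. The ribosome biogenesis list holds nucleolar proteins that modify, cut and fold ribosomal RNA. Of its 66 tested genes, 44 were higher in SCNT than in AI and none was lower, with a median difference of 0.61, beside 2 of 64 ribosomal protein genes. The share called was 66.7%, beside 27.6% of all probe sets. With 1 array left out 28 to 41 were higher, the lowest count being that without SCNT 2. In those runs 17.1% to 23.2% of all probe sets were called, the lowest share also being that without SCNT 2. GAR1 and NHP2, of the particles that convert uridine to pseudouridine, were higher by 1.41 (means 7.30 and 5.89) and 1.03 (8.77 and 7.74). NOP56, of the particles that methylate ribosomal RNA, was higher by 1.07 (9.04 and 7.97), and GNL2, a GTPase of large subunit assembly, by 1.01 (5.40 and 4.39).

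In IVP against AI 12 of the 66 biogenesis genes were higher and none was lower, with a median of 0.35; the share called was 18.2%, beside 17.9% of all probe sets. That count was 5 to 13 with 1 array left out and 1 without AI 2, IVP 2 and IVP 3, the arrays with the brightest added controls, and it was 24 with all 12 arrays in the fit. The shares of all probe sets called in these runs were 9.95% to 15.6%, 6.27% and 22.4%. The count of 12 became 17 with arrays centred on their medians and 17 with quantile normalization, beside 18.5% and 18.7% of all probe sets. With centring on the brightest 10% of other probe sets it was 22, beside 19.3%. GAR1, GNL3, GNL2 and NOP56 were higher by 0.84 to 0.88. Between SCNT and IVP none was called by limma, with 19 at an unadjusted p under 0.05, while 3 were called with all 12 arrays in the fit. Of all probe sets, 876 of 6892 had such an unadjusted p, and 1.56% were called with all 12 arrays in the fit. Against fibroblasts 33 were higher and 6 lower in AI, 55 and 4 in IVP and 57 and 2 in SCNT, or 59.1%, 89.4% and 89.4%, beside 77.2%, 78.7% and 79.9% of all probe sets. With arrays centred on the brightest 10% of the probe sets that are no members these were 19 and 15, 34 and 8, and 42 and 4. The splits of all 8164 probe sets were then 2462 and 3798, 2541 and 3746, and 2633 and 3738. DKC1, the pseudouridine synthase itself, was higher than in fibroblasts by 2.60, 2.68 and 2.64, and FBL, the ribosomal RNA methyltransferase fibrillarin, by 2.14, 2.33 and 2.59. SBDS, which frees the large subunit for joining and is mutated in Shwachman-Diamond syndrome, was lower, with log2 differences of −2.21 in AI, −2.06 in IVP and −1.58 in SCNT.

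**Figure D5:**
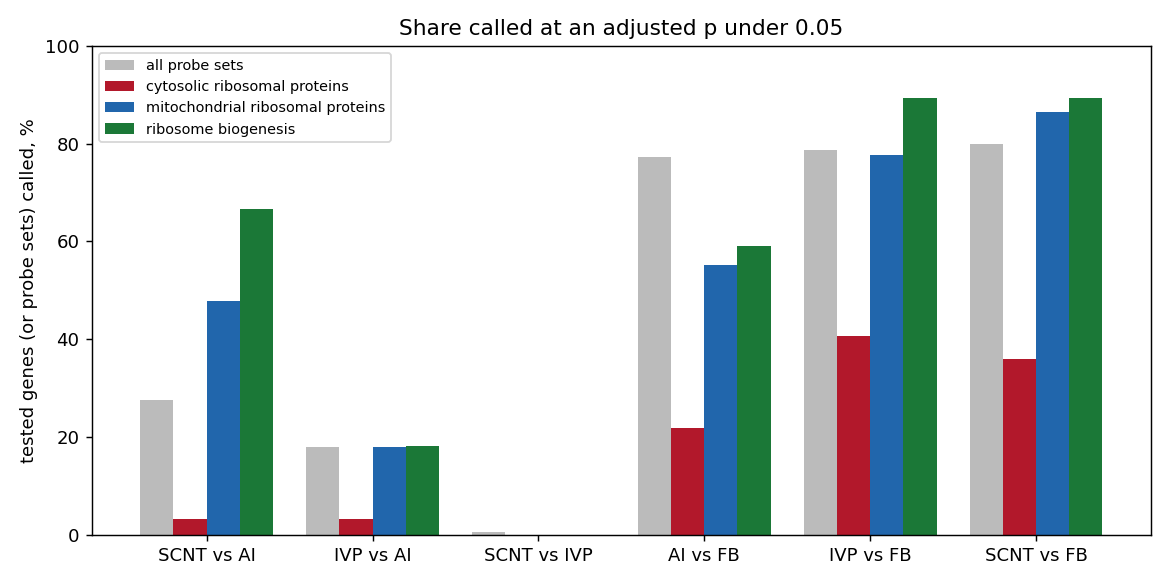
Percent of tested genes or probe sets with an adjusted p under 0.05 (vertical axis, from 0 to 100) in each of the 6 comparisons, for all probe sets, the cytosolic and the mitochondrial ribosomal proteins and the ribosome biogenesis list. In SCNT against AI the bars are 27.6%, 3.13%, 47.8% and 66.7%.

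The mitochondrial ribosomal proteins, which build the separate ribosome of that organelle, were counted beside the cytosolic ones. Of 67 tested, 32 were higher in SCNT and 12 in IVP than in AI, none was lower, and the medians were 0.43 and 0.30. The shares called were 47.8% and 17.9%, beside 27.6% and 17.9% of all probe sets. The count of 32 was 17 without SCNT 2, 18 without SCNT 1 and 21 without AI 3, and the count of 12 was 6 without IVP 3, 7 without AI 3 and 2 without AI 2, IVP 2 and IVP 3 together. Against fibroblasts 31, 50 and 57 were higher and 6, 2 and 1 lower in AI, IVP and SCNT, or 55.2%, 77.6% and 86.6% called. Of all probe sets 77.2%, 78.7% and 79.9% were called. With the centring on the brightest 10% the mitochondrial counts became 16, 32 and 35 higher and 20, 8 and 8 lower. Of all 8164 probe sets, 2462, 2541 and 2633 were then higher and 3798, 3746 and 3738 lower. Of 37 tested proteasome subunits, which form another large complex, 7 were higher in SCNT and 1 in IVP than in AI, with medians of 0.24 and 0.18, and none was lower (18.9% and 2.70% called).

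Other messages that carry a TOP motif changed in few cases between conceptuses. Of 15 tested, EEF1D, a subunit of the elongation factor that reloads GTP, was higher in SCNT than in AI by 0.35, a call that ended with any 1 array left out, and PABPC1, the main poly(A)-binding protein, was lower, with a log2 difference of −0.60 (means of 11.74 and 12.35). In IVP PABPC1 was lower, with a difference of −0.69, and no other gene of the list was called, and the medians of the list were 0.04 and −0.06. The shares called were 13.3% in SCNT and 6.67% in IVP, beside 27.6% and 17.9% of all probe sets. Against fibroblasts 8 of 16 were higher and 2 lower in AI, 7 and 3 in IVP and 6 and 3 in SCNT, and with the centring on the brightest 10% 3 and 7, 5 and 8, and 5 and 6. The splits of all 8164 probe sets with that centring were 2462 and 3798, 2541 and 3746, and 2633 and 3738. Without that centring 62.5%, 62.5% and 56.25% were called, beside 77.2%, 78.7% and 79.9% of all probe sets. VIM, the intermediate filament protein of mesenchymal cells, had the largest difference, with means of 13.09 in fibroblasts and 2.59 in AI. PABPC4, NAP1L1 and PABPC1 were higher in AI by 1.15, 1.09 and 1.46.

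Among 31 tested initiation factors, 9 were higher in SCNT and 4 in IVP than in AI, and none was lower, with medians of 0.36 and 0.24. The shares called, 29.0% and 12.9%, stood beside 27.6% and 17.9% of all probe sets. With 1 array left out these counts were 5 to 10 and 1 to 2, beside 17.1% to 23.2% and 9.95% to 15.6% of all probe sets. EIF2B1, a subunit of the exchange factor of eIF2, was higher by 0.96 in SCNT and 0.50 in IVP, and EIF4E2, a relative of the cap-binding protein, by 0.80 and 0.67. Against fibroblasts 11 were higher and 8 lower in AI, 16 and 4 in IVP and 19 and 4 in SCNT (5 and 14, 8 and 9, and 10 and 9 with the centring on the brightest 10%), with EIF4G3 lower in each (log2 differences of −2.91, −2.77 and −2.98). As reported, 61.3%, 64.5% and 74.2% of the initiation factors were called against fibroblasts, beside 77.2%, 78.7% and 79.9% of all probe sets. Among 8 tested elongation and release factors, 3 were higher in SCNT and 2 in IVP than in AI, including GSPT1, the release factor eRF3a, by 0.74 and 0.39, and none was lower, with 2 and 0 to 1 higher when 1 array was left out. With all arrays that was 37.5% and 25% called, beside 27.6% and 17.9% of all probe sets. Against fibroblasts 5 of 9 were higher and 3 lower in AI, and 4 were higher and 2 lower in both IVP and SCNT. These were 88.9%, 66.7% and 66.7% of the list, beside the same shares of all probe sets. With the centring on the brightest 10% the splits were 1 and 3 in AI, 4 and 4 in IVP and 4 and 3 in SCNT. For both lists, the splits of all 8164 probe sets with that centring were 2462 and 3798, 2541 and 3746, and 2633 and 3738.

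The RNA polymerase I list, which transcribes ribosomal RNA, had 2 of 10 genes higher in SCNT and in IVP than in AI and none lower, among them RRN3, an initiation factor of that polymerase, by 0.50 and 0.51. The share called was 20% in both comparisons, beside 27.6% and 17.9% of all probe sets. With 1 array left out 0 to 2 and 0 to 1 were higher, while 17.1% to 23.2% and 9.95% to 15.6% of all probe sets were called. Against fibroblasts 4 were higher and 2 lower in AI, and 7 were higher and none lower in IVP and in SCNT. These were 60%, 70% and 70% of the list, beside 77.2%, 78.7% and 79.9% of all probe sets. The splits became 4 and 4, 4 and 2, and 4 and 3 with the centring on the brightest 10%. Those of all 8164 probe sets were then 2462 and 3798, 2541 and 3746, and 2633 and 3738. Of 8 tested genes of growth control, MXI1, a partner of MAX that opposes MYC, was lower than in AI (log2 differences of −1.75 in SCNT and −1.49 in IVP). EIF4EBP1, which holds back the cap-binding protein until mTOR acts on it, was higher in SCNT than in AI by 0.73 (adjusted p = 0.0308 by limma), and 0 to 1 gene of that list was higher with 1 array left out. RPS6KB1, the kinase of ribosomal protein S6, was higher than in fibroblasts by 1.85, 1.85 and 1.96 in AI, IVP and SCNT. Against fibroblasts 4 of the 8 were higher and 3 lower in AI, and 3 were higher and 1 lower in IVP and in SCNT, where 3 and 3 were called in each group with the centring on the brightest 10%. Of this list, 25% were called in SCNT and 12.5% in IVP against AI, and 87.5%, 50% and 50% against fibroblasts. The shares of all probe sets are those given for the RNA polymerase I list. Between SCNT and IVP, limma on the 9 conceptus arrays called no gene of these lists, the mitochondrial ribosomal proteins or the proteasome. At an unadjusted p under 0.05 there were 5 of 31 initiation factors, 7 of 67 mitochondrial ribosomal proteins and 1 of 37 proteasome subunits. There were also 1 of 8 elongation or release factors, 1 of 10 RNA polymerase I genes and 19 of 66 biogenesis genes. Over all probe sets 876 of 6892 had such a p.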

How the data were processed

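The members and the gene lists were chosen with earlier results of these data known. Log2 signals of 24128 probe sets on 12 arrays were deposited; the authors made them from Affymetrix arrays with GCRMA, per the submitters' processing notes, which also name limma. Their versions: not given in the sources used here. A set of 112 control probe sets was set aside. Of the others, 13292 have 1 gene symbol, 86 have several and 10638 have none in the platform annotation; symbols were updated through the RefSeq table (ARS-UCD2.0), in which all 94 member probe sets matched. No symbol was taken from a probe set with several.

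limma 3.58.1 in R 4.3.3 was run on probe sets whose signal passed log2 4 on 3 or more of the fitted arrays: 6892 on the 9 conceptus arrays, 6 residual degrees of freedom, and 8164 on all 12 arrays for comparisons with FB, 8 residual degrees of freedom. Tests were two-sided, with Benjamini-Hochberg adjustment over all probe sets tested and a threshold of 0.05. Fits were tested on simulated data. With 3 arrays a group, their number limits the precision, and GCRMA sets dim probe sets near a floor: 36.8% of values lie within 0.01 of the lowest.

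Named with array values were members called between conceptus groups, the 5 largest calls each way against FB, variants with their counterparts, stalk proteins, RPSA, the 3 brightest and 3 dimmest, and members with discordant probe sets. For other lists up to 4 called genes were taken by size. Alternatives changed the scaling, filter, probe set of a gene, variance model, arrays in the fit, and left out each array; 1 was added after seeing the data, leaving out the 3 arrays of highest spike signal.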

Additional observations from a re-analysis of the deposited data

How the results depend on the processing

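With 3 arrays a group, counts of calls moved more than differences did. Of 46 calls of named genes, 16 held under every alternative and 30 ended in at least 1. The sign of 5 calls against FB turned: with centring on the brightest 10% of other probe sets for RPS4Y1 in AI (−0.11), RPL24 (−0.079) and RPLP2 (−0.013) in IVP, and RPL24 (−0.12) and RPL9 (−0.058) in SCNT, and with the mean of all probe sets for RPS4Y1 in AI (−0.62) and RPL24 in IVP (−0.74) and SCNT (−0.32). In SCNT against AI the 2 ribosomal protein calls became 1 with the replicate block and 1 without the 3 arrays of highest spike signal, an alternative chosen after seeing the data, and 0 to 1 with 1 array left out, and were 3 with all 12 arrays in the fit and 3 with an intensity trend and robust variance. The shares of all probe sets called in these runs were, in that order, 25.1%, 23.7%, 17.1% to 23.2%, 31.0% and 27.7%. In IVP against AI the 2 calls became 4 with all 12 arrays in the fit, 4 with an intensity trend and robust variance, 1 with the replicate block, 0 without the 3 spike arrays and 0 to 2 with 1 array left out. Over all probe sets these runs called, in that order, 22.4%, 18.2%, 15.6%, 6.27% and 9.95% to 15.6%. The replicate numbers did not pair the arrays: deviations of same-numbered arrays correlated at −0.15 to 0.21, over 0.1 in 3 of 18 pairs, and 4 of 12 arrays correlated best with their own number.

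Against FB, centring on the brightest 10% of other probe sets raised the calls from 14 to 44 in AI and from 23 to 40 in SCNT, nearly all lower, and turned the medians to −0.31 in AI, −0.23 in IVP and −0.28 in SCNT. Over all probe sets the share called went from 77.2% to 76.7% in AI and from 79.9% to 78.0% in SCNT. Of 8164 probe sets, 3798 in AI and 3738 in SCNT were then called lower. Quantile normalization gave an IVP median of 0.066. The 26 IVP calls became 12 without the spike arrays, and with 1 array left out the counts were 14 to 21 in IVP and 13 to 22 in SCNT. Of all probe sets, 74.3% were called in IVP without the spike arrays. With 1 array left out, 70.4% to 76.9% were called in IVP and 71.7% to 77.7% in SCNT. Large minus small subunit, taken on each array as the difference of the subunit medians and averaged over a group, was 0.11 in SCNT and 0.10 in IVP against AI, and −0.13, −0.026 and −0.013 in AI, IVP and SCNT against FB. Taken by means as in the report but without variants, the values against FB were −0.091, −0.022 and −0.036, and with the mean of all probe sets of a gene −0.0073, 0.059 and 0.044. The causes of these shifts were not tested, beyond the fewer arrays where some were left out. Signal near the floor limits what can be said of RPL37, RPL3L and RPS19.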
